A study of Mus musculus with 15 samples.

Results

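Txnip, the thioredoxin-interacting protein, was examined in transferred CD4+ T cells together with 8 genes that act around it: the alpha-arrestins Arrdc3 and Arrdc4, the transcription factors Mlxip and Mlx, the glucose transporters Slc2a1 and Slc2a3, and the thioredoxin genes Txn1 and Txnrd1. These 9 genes, of 55421 genes counted, were chosen by symbol. Txnip was selected on measured values, since it was lower in KO than in WT T cells of both organs in an earlier analysis of these counts, and the other genes were chosen for their known relation to Txnip. Values from the comparison of KO with WT are therefore given for the 9 genes as a description. Nothing is read from whether these genes passed a test in that comparison. All 9 genes had reads in every sample and passed the filter on low counts in every comparison.

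The sequencing compared CD4+ T cells recovered 6 weeks after naive CD4+ T cells had been transferred into Rag2–/– recipients, which have no T or B cells of their own, a model in which the transferred cells cause colitis. All donors were C57BL/6 mice in which both copies of Prkaa1 were floxed (Prkaa1 encodes AMPKα1, a catalytic subunit of the energy sensor AMPK). WT donors had no Cre. KO donors carried CD4-Cre, which deletes the gene in thymocytes that express both CD4 and CD8, a stage before the transfer. T cells were sorted from the spleen and from the mesenteric lymph nodes (mLN), giving 4 WT spleen, 4 KO spleen, 3 WT mLN and 4 KO mLN samples, after the study had left out 1 WT mLN sample on quality control. The samples came from 1 experiment with 4 mice per group, and the labels do not tie a sample number to a mouse, so that spleen and mLN samples of the same number may share a mouse. Fewer cells of a type and less RNA per cell cannot be told apart in such bulk samples.

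The level of a gene is given as CPM, the reads of the gene per 1000000 reads counted on genes. Between 9363940 and 11283439 reads per sample (median 10545309) were counted on genes. In spleen, Prkaa1 averaged 51.1 ± 3.71 CPM (SD, n = 4) in WT and 20.1 ± 1.38 CPM (n = 4) in KO. In mLN it averaged 53.3 ± 6.57 CPM (n = 3) in WT and 27.7 ± 5.37 CPM (n = 4) in KO. The genotypes did not overlap in either organ, but reads of Prkaa1 remained in every KO sample. Whether these reads came from undeleted parts of the gene or from cells that had kept it was not tested. The summed level of 5 T cell markers was 5569 to 7152 CPM in all 15 samples, and that of 4 B cell markers stayed at or below 5.05 CPM. The summed level of 4 erythroid markers was high in 3 WT samples, with 1488 CPM in WT spleen 3, 710 CPM in WT spleen 4 and 624 CPM in WT mLN 4, and lay between 13.8 and 93.4 CPM in the other samples. All 4 erythroid markers had reads in every group. Values without those 3 samples are given where a result rests on them.

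Txnip encodes an alpha-arrestin that binds and inhibits reduced thioredoxin and that promotes the removal of glucose transporters from the cell surface. Its transcription is driven by MondoA, the product of Mlxip, which pairs with Mlx and binds carbohydrate response elements when glucose 6-phosphate is high, and AMPK is known to phosphorylate the Txnip protein and mark it for degradation. In T cells, activation is known to lower Txnip and to raise Slc2a1, which encodes the main glucose transporter of activated T cells.

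The 250 bases before the annotated start site of Txnip are shown because they hold the carbohydrate response element, here searched as a pair of CACGNG elements 5 bases apart on either strand. The 250 bases before the start of Arrdc4, another known MondoA target, are shown beside them. The sequences are from RefSeq on GRCm38.p6, 5′ to 3′ on the strand of the gene, at chr3:96557707-96557956 (plus strand) for Txnip and chr7:68749239-68749488 (minus strand) for Arrdc4. Capitals mark the pair of elements in Txnip and a CACGTG E-box in Arrdc4.
Txnip: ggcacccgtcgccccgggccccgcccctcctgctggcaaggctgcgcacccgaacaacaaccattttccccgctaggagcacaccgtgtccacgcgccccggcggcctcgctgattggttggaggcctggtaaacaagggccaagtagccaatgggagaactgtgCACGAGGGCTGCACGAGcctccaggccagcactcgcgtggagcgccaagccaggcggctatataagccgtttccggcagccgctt
Arrdc4: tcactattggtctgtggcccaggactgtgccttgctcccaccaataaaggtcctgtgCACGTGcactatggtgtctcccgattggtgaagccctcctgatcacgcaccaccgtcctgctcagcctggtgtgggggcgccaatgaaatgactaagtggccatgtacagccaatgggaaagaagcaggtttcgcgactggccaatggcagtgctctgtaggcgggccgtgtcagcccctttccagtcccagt
The pair in Txnip, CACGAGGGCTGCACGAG, began 85 bases before the start site. In windows of 300 bases (250 before to 50 after the start), 16 of 32851 promoters (0.0487%), belonging to 15 genes, held such a pair. Of the 9 genes, 8 had a promoter in the table (not Slc2a3), and Txnip was the one with the pair. Only this exact form was searched, so a promoter without it was not shown to lack a carbohydrate response element. The palindrome CACGTG, present in 7.15% of all promoters, was found in Arrdc4, 193 bases before the start, and in Mlx, 40 bases before it. The antioxidant response motif TGACNNNGC, present in 12.4% of promoters on either strand, was found in Arrdc4, in Mlx and in 1 of the 3 promoters of Txnrd1. A match is a description of letters only.

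Txnip (ENSMUSG00000038393, chromosome 3, 96557957 to 96561883, plus strand, GRCm38) was high in all WT samples and low in all KO samples. In WT spleen, samples 1 to 4 had 318, 487, 353 and 674 CPM. In KO spleen, samples 1 to 4 had 199.8, 229, 203 and 209 CPM. The highest KO sample therefore lay below the lowest WT sample, and the 4 KO samples lay close together while the WT samples were spread widely. In mLN, WT samples 1, 2 and 4 had 307, 492 and 557 CPM, and KO samples 1 to 4 had 213, 208, 194 and 185 CPM. The same separation was present in mLN, again with a narrow KO group.

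Means were 458 ± 162 CPM (SD, n = 4) in WT spleen, 452 ± 130 CPM (n = 3) in WT mLN, 210.2 ± 13.1 CPM (n = 4) in KO spleen and 199.9 ± 12.6 CPM (n = 4) in KO mLN. In this order, the organs of each genotype overlapped and WT mLN did not overlap with KO spleen. The log2 fold change of KO against WT was −1.10 (SE 0.19) in spleen and −1.18 (SE 0.16) in mLN, which is a level of 0.465 and 0.44 of WT. The coefficient of variation was 35.3% in WT spleen and 28.8% in WT mLN, against 6.25% in KO spleen and 6.3% in KO mLN, and the highest sample was 2.12 times the lowest in WT spleen and 1.15 times in KO spleen. The difference in spread was not tested. The erythroid markers were high in WT samples with low Txnip (WT spleen 3) and with high Txnip (WT spleen 4 and WT mLN 4). Without WT spleen 3 and 4, the log2 fold change in spleen was −0.91, and the 4 WT samples with low erythroid markers in both organs had 307 to 492 CPM, all above every KO sample.

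**Figure D1:**
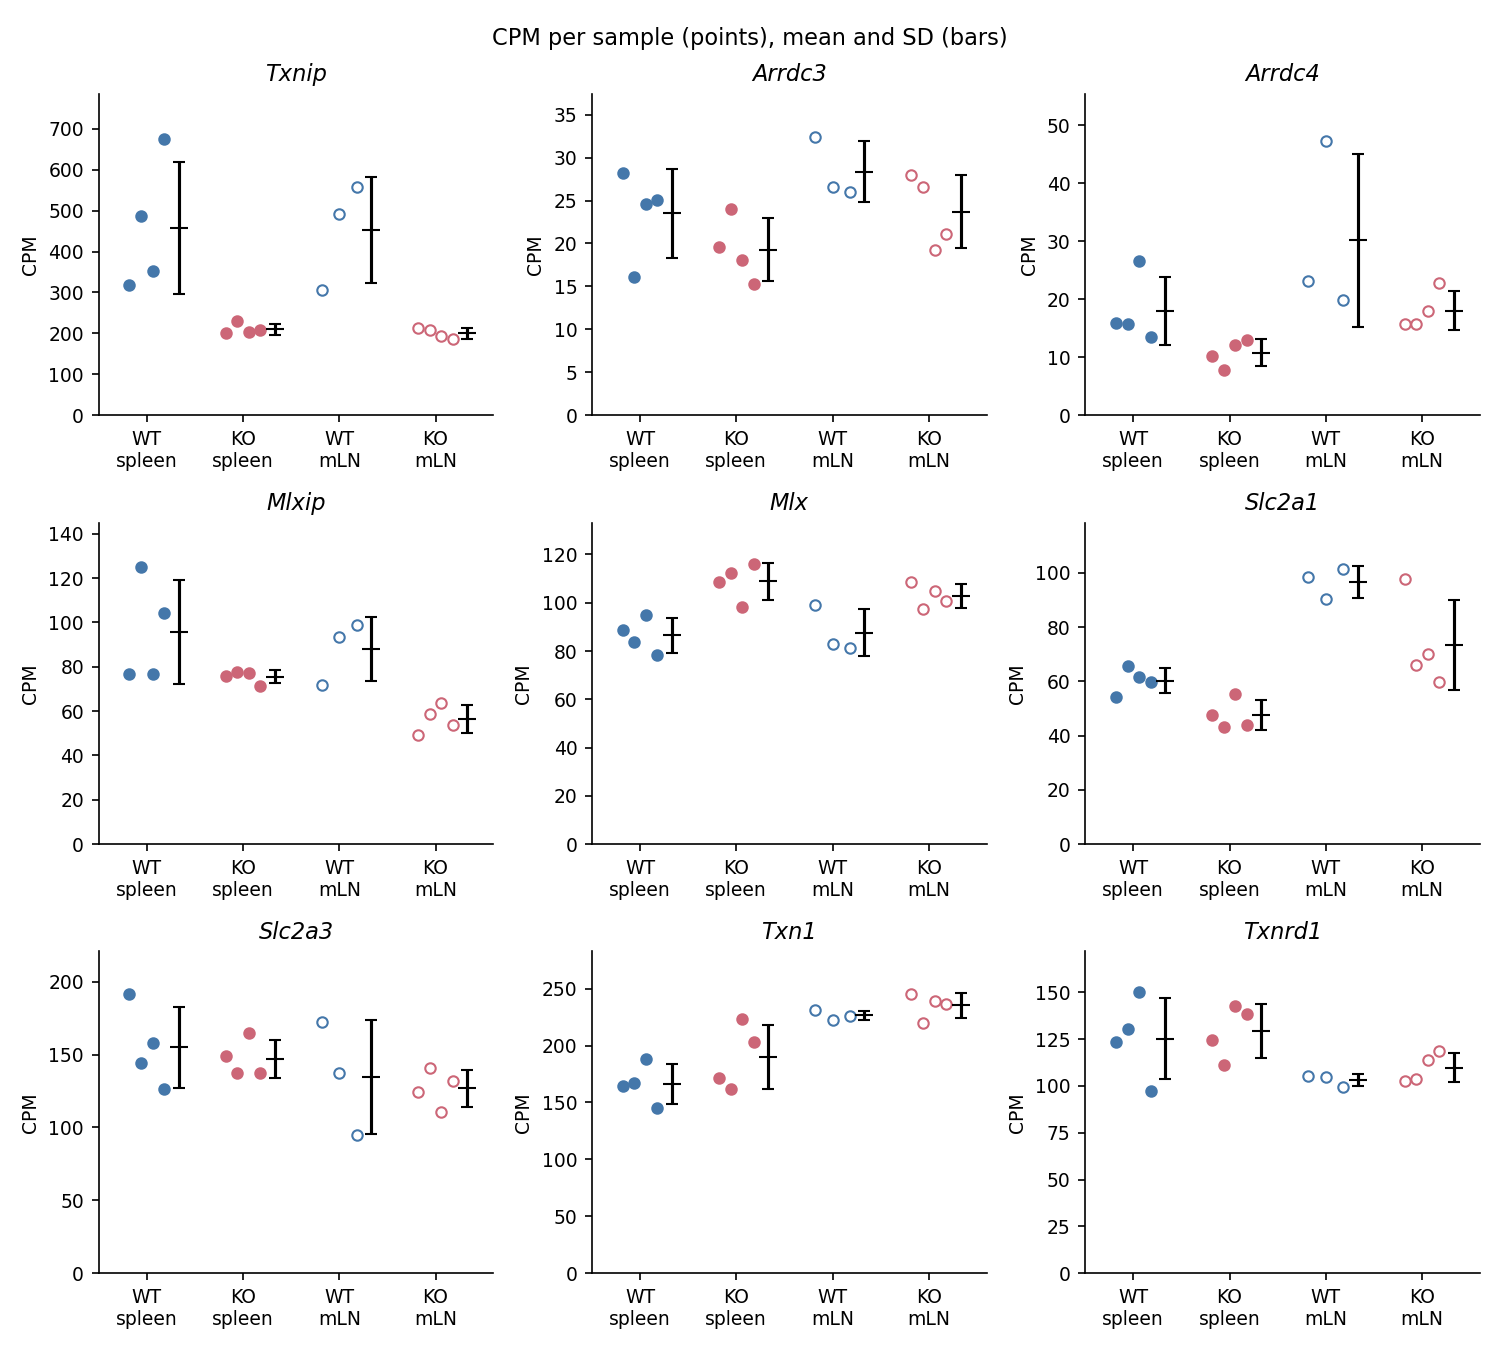
Level of each of the 9 genes in CPM (linear axes from 0), with 1 point per sample in the order of the replicate numbers (WT blue, KO red, filled for spleen, open for mLN) and the group mean with its SD as a black bar. Txnip in WT samples lies between 307 and 674 CPM and in KO samples between 185 and 229 CPM.

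Beside the background of all genes, 1 of the 9 genes, Txnip, was called at an adjusted p under 0.05 (edgeR, Benjamini-Hochberg over all genes tested) in spleen, where 1.3% of 14254 genes were called, and likewise 1 of 9 in mLN, where 0.641% of 14359 genes were called. Since the comparison was used for the choice, nothing is read from these counts. The CPM of the genotypes did not overlap for 3 of the 9 genes in spleen (Txnip, Arrdc4 and Mlx), where this held for 12% of all genes tested, and for 2 of the 9 in mLN (Txnip and Mlxip), where it held for 14.4%. In each organ the log2 fold change was below 0 for 6 of the 9 genes. The median over the 9 genes was −0.28 in spleen and −0.27 in mLN, beside −0.0041 and −0.0038 over all genes tested.

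A gene on the other strand, Gm15441 (ENSMUSG00000074398, chromosome 3, 96555765 to 96566801, minus strand, annotated as antisense), lies across the whole of Txnip. Its exons overlap those of Txnip by 606 bases, which is 19.4% of the exon length of Txnip and 36.2% of its own. Of these, 441 bases lie in the first exon block of Txnip, 162 of them coding, and 165 bases lie in block 5 of 6, all of them coding. The sources used here do not say which column of strand counts was deposited. Of 29 genes that lie wholly inside exons of an expressed gene on the other strand, 29 had reads, which unstranded counting would have left as ambiguous, so the deposited counts took the strand of the read into account. The library kit named by the study is not known to mark strand, so reads of Txnip and Gm15441 in the shared bases cannot be told apart. The same limit holds for Mlx and Psmc3ip, Mlxip and Gm15747, and Slc2a1 and Gm12868, whose overlaps are given below.

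Gm15441 followed Txnip from sample to sample. In WT spleen Txnip had 3036, 4556, 3720 and 6726 reads and Gm15441 had 649, 1109, 828 and 1511 reads in samples 1 to 4. In KO spleen Txnip had 1903, 2563, 2155 and 2361 reads and Gm15441 had 447, 618, 484 and 501 reads. Across all 15 samples Txnip varied 3.53-fold and Gm15441 3.38-fold, while the reads of Gm15441 stayed at 21.2% to 24.3% of those of Txnip (median 22.5%). The ratio in KO samples (21.2% to 24.1% in spleen) lay within the range of WT samples. The log2 fold change of Gm15441 in KO against WT, −1.10 in spleen and −1.15 in mLN, was close to that of Txnip. Per base, the nested genes described above had a median of 1.44 times the reads of their surrounding genes (quartiles 0.326 and 2.54). How many of the reads on Gm15441 came from Txnip was not tested.

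**Figure D2:**
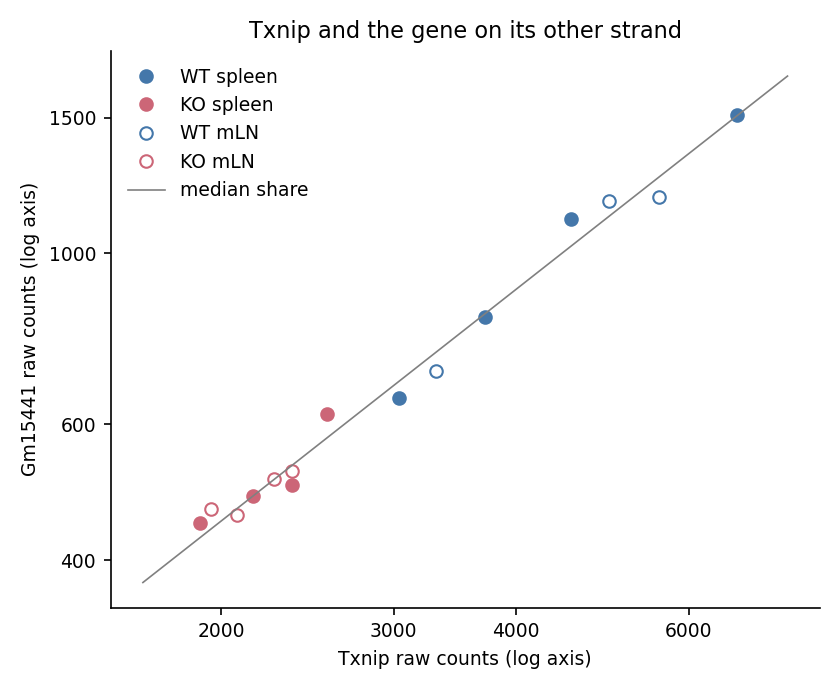
Raw read counts of Txnip (x) and of the opposite-strand gene Gm15441 (y) on log axes, 1 point per sample in 4 groups, with a grey line at the median share of 22.5%. All 15 samples lie near the line, with KO samples at its lower end and WT samples at its upper end.

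Of the alpha-arrestins, Arrdc4 (chromosome 7, 68736995 to 68749241, minus strand), which like Txnip is known to act on glucose uptake, rose from spleen to mLN in KO T cells. In WT spleen, samples 1 to 4 had 15.9, 15.7, 26.6 and 13.4 CPM, and in KO spleen 10.3, 7.78, 12.1 and 13.0 CPM. In mLN, WT samples 1, 2 and 4 had 23.2, 47.4 and 19.9 CPM, and KO samples 1 to 4 had 15.8, 15.7, 18.04 and 22.7 CPM. In spleen the genotypes were separate by a narrow margin, in mLN they overlapped, and WT spleen 3 and WT mLN 2 stood above the other samples of their groups. KO differed from WT by a log2 fold change of −0.72 (SE 0.24) in spleen and −0.75 (SE 0.27) in mLN. Without WT spleen 3 the value in spleen was −0.45, and without WT mLN 2 that in mLN was −0.28. In KO T cells Arrdc4 rose from spleen to mLN by 0.74 on the log2 scale (SE 0.19, edgeR adjusted p = 0.0169), and the adjusted p was 0.0554 when all 15 samples shared 1 fit. In WT T cells the difference was 0.78 (SE 0.33, adjusted p = 0.122). With the replicate number as a block, since WT samples of the same number deviated together, it was 0.97 and passed the limit (adjusted p = 0.00701). Without WT spleen 3 it was 1.05 (adjusted p = 0.043), and without WT mLN 2 it was 0.31 (adjusted p = 0.486). The difference between the organ effects, tested as the interaction, was −0.03 (edgeR adjusted p = 0.9998). The organ effect of Arrdc4 was thus not shown to differ between the genotypes.

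Arrdc3 (chromosome 13, 80883384 to 80896042, plus strand), an arrestin known to act on beta-adrenergic receptors and energy balance, ranged from 16.1 to 28.3 CPM in WT spleen, 15.3 to 24.0 CPM in KO spleen, 26.0 to 32.5 CPM in WT mLN and 19.2 to 27.9 CPM in KO mLN. The genotypes overlapped in both organs, with log2 fold changes of −0.28 (SE 0.18) in spleen and −0.27 (SE 0.18) in mLN. Between the organs the log2 difference was 0.31 in each genotype and did not pass the test (edgeR adjusted p = 0.296 in WT and 0.213 in KO).

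Of the pair of factors that bind the carbohydrate response element, Mlxip had log2 fold changes of KO against WT below 0 and Mlx above 0 in both organs. Mlxip (chromosome 5, 123394798 to 123457932, plus strand), which encodes MondoA, had 76.8, 125, 76.7 and 104 CPM in WT spleen 1 to 4 and 75.7, 77.8, 77.2 and 71.2 CPM in KO spleen 1 to 4. In mLN it had 71.8, 93.4 and 99.0 CPM in WT samples 1, 2 and 4 and 49.2, 58.5, 63.8 and 54.0 CPM in KO samples 1 to 4. The KO samples of spleen lay at the level of the lower WT samples, while the KO samples of mLN lay below all other samples. Against WT, the log2 fold change of KO was −0.33 (SE 0.13) in spleen and −0.65 (SE 0.13) in mLN. From spleen to mLN, Mlxip fell in KO T cells by 0.42 on the log2 scale (SE 0.09, edgeR adjusted p = 0.0053), and in WT T cells the difference was −0.08 (adjusted p = 0.792). The difference between these organ effects, tested as the interaction, was −0.33 (SE 0.20, adjusted p = 0.9998), so the organ effect was not shown to differ between the genotypes.

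Mlx (chromosome 11, 101087277 to 101092207, plus strand), the partner of MondoA, had 88.9, 83.6, 94.9 and 78.3 CPM in WT spleen 1 to 4 and 109, 112, 98.4 and 116 CPM in KO spleen 1 to 4. In mLN it had 98.9, 83.0 and 81.1 CPM in WT samples 1, 2 and 4 and 109, 97.2, 105 and 101 CPM in KO samples 1 to 4. In spleen each KO sample lay above each WT sample, and in mLN WT 1 lay among the KO samples. KO exceeded WT by a log2 fold change of 0.35 (SE 0.085) in spleen and 0.22 (SE 0.11) in mLN. Between the organs Mlx did not pass the test in WT (0.06, edgeR adjusted p = 0.749) or in KO (−0.08, adjusted p = 0.492). Psmc3ip on the other strand shares 385 bases, or 19.3%, of the exons of Mlx and had 160 to 332 reads per sample beside 781 to 1311 reads of Mlx. Gm15747 shares 3.21% of the exons of Mlxip (41 to 117 reads), and Gm12868 shares 2.99% of those of Slc2a1 (28 to 80 reads).

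**Figure D3:**
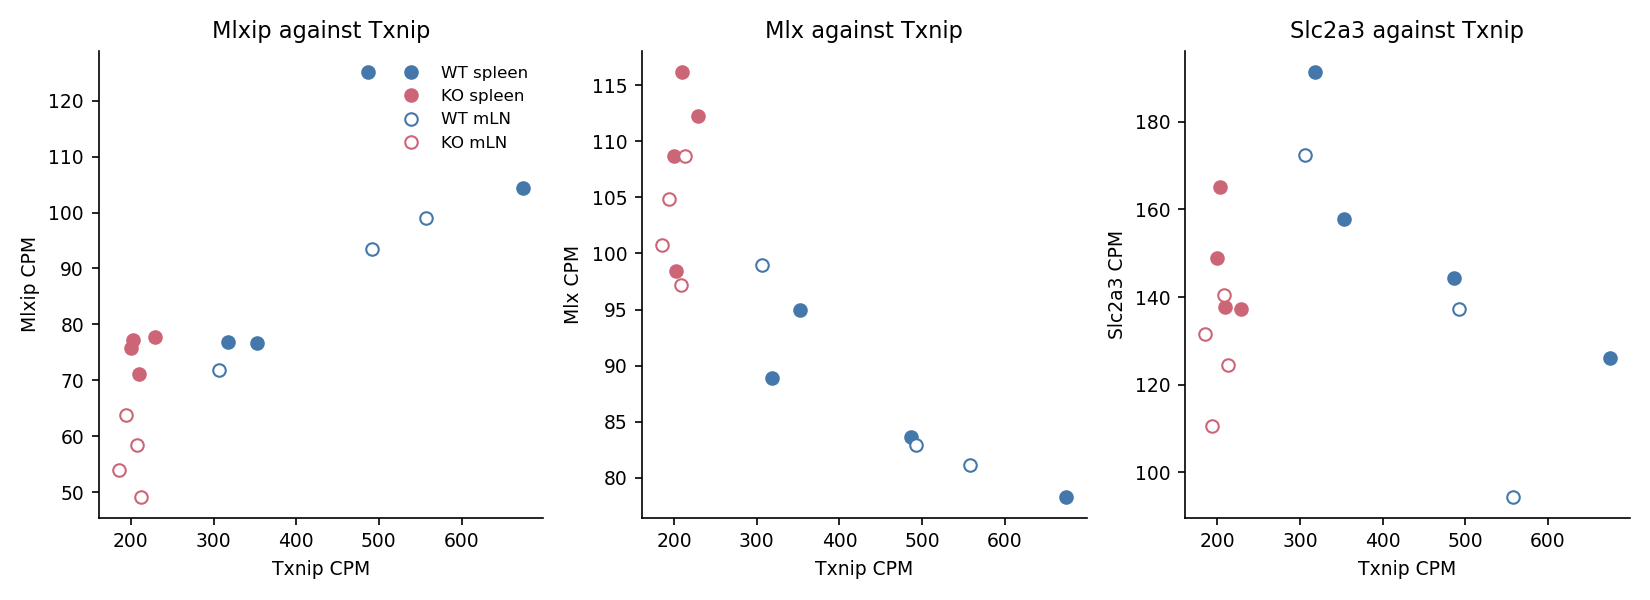
CPM of Mlxip, Mlx and Slc2a3 (y) against CPM of Txnip (x), 1 point per sample in 4 groups (axes do not start at 0). Within each WT group Slc2a3 is highest in the sample with the least Txnip (191 and 172 CPM) and lowest in the sample with the most (126 and 94.5 CPM), and the KO samples stand at the left with Txnip between 185 and 229 CPM.

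Slc2a1 (chromosome 4, 119108711 to 119137983, plus strand), which encodes the glucose transporter GLUT1, was higher in mLN than in spleen in both genotypes. In spleen it had 54.2, 65.6, 61.5 and 59.9 CPM in WT samples 1 to 4 and 47.8, 43.3, 55.3 and 44.0 CPM in KO samples 1 to 4. In mLN it had 98.4, 90.2 and 101 CPM in WT samples 1, 2 and 4 and 97.6, 65.9, 70.3 and 59.8 CPM in KO samples 1 to 4. Every mLN sample was above every spleen sample of its genotype, and 3 of the 4 KO mLN samples lay below all WT mLN samples, with KO mLN 1 at the WT level. From spleen to mLN Slc2a1 rose by 0.72 on the log2 scale in WT (SE 0.091, edgeR adjusted p = 0.00101) and by 0.63 in KO (SE 0.16, adjusted p = 0.0123), and both calls were kept when any 1 sample was left out. The log2 fold change of KO against WT was −0.33 (SE 0.097) in spleen and −0.40 (SE 0.16) in mLN, with overlap in both. The interaction was −0.08 (adjusted p = 0.9998).

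Slc2a3 (chromosome 6, 122727809 to 122801640, minus strand), which encodes GLUT3, a transporter of high affinity for glucose, ranged from 126 to 191 CPM in WT spleen, 137 to 165 CPM in KO spleen, 94.5 to 172 CPM in WT mLN and 110.5 to 141 CPM in KO mLN, and the genotypes overlapped in both organs. The log2 fold change of KO against WT was −0.06 in spleen and −0.10 in mLN, and its sign changed without WT spleen 1 (0.060) and without WT mLN 1 (0.13). From spleen to mLN it was −0.16 in WT (edgeR adjusted p = 0.615) and −0.21 in KO (adjusted p = 0.112). Within the WT groups the order of the samples was the reverse of that of Txnip. In WT spleen Slc2a3 had 191, 158, 144 and 126 CPM in samples 1, 3, 2 and 4, which had 318, 353, 487 and 674 CPM of Txnip. In WT mLN it had 172, 137 and 94.5 CPM in samples 1, 2 and 4, in which Txnip increased from 307 to 492 and 557 CPM. After each group mean was subtracted, Pearson's r between the log2 CPM of the genes was −0.82 over the 15 samples and without that subtraction it was −0.21. These values are a description, since the samples of a number from both organs may share a mouse.

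Of the thioredoxin genes, Txn1 (chromosome 4, 57943373 to 57956411, minus strand), which encodes the thioredoxin that Txnip binds, was higher in mLN than in spleen in WT. In spleen it had 164, 167, 188 and 145 CPM in WT samples 1 to 4 and 171, 162, 224 and 203 CPM in KO samples 1 to 4. In mLN it had 231, 222 and 226 CPM in WT samples 1, 2 and 4 and 245, 219.8, 239 and 237 CPM in KO samples 1 to 4. All WT mLN samples were above all WT spleen samples, while KO spleen 3 reached into the KO mLN range. Txn1 rose from spleen to mLN by 0.48 on the log2 scale in WT (SE 0.10, edgeR adjusted p = 0.0105), a call kept when any 1 sample was left out, and the difference in KO was 0.31 (SE 0.11, adjusted p = 0.0527). That difference in KO passed the limit in 5 of 6 other settings, all but RLE normalization (adjusted p from 0.0103 to 0.0515), and in 1 of 8 fits that left out a sample. The interaction was −0.17 (edgeR adjusted p = 0.9998), so the organ effect of Txn1 was not shown to differ between the genotypes. For KO against WT, the log2 difference was 0.21 in spleen and 0.04 in mLN, with overlap. Genes with processed copies, of which Txn1 is known to have some, can lose reads that align to several places.

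Txnrd1 (chromosome 10, 82833951 to 82897712, plus strand), which encodes the reductase that restores thioredoxin, ranged from 97.4 to 150.1 CPM in WT spleen, 111 to 143 CPM in KO spleen, 99.7 to 105 CPM in WT mLN and 103 to 119 CPM in KO mLN. KO and WT differed by log2 fold changes of 0.06 in spleen (−0.049 without WT spleen 4) and 0.08 in mLN. From spleen to mLN it was −0.24 in both genotypes, which did not pass the test (edgeR adjusted p = 0.245 in WT and 0.0919 in KO). In KO it passed the limit with the replicate block (adjusted p = 0.044) and in 1 of 8 fits that left out a sample. In WT it passed in 1 of 7 such fits.

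**Figure D4:**
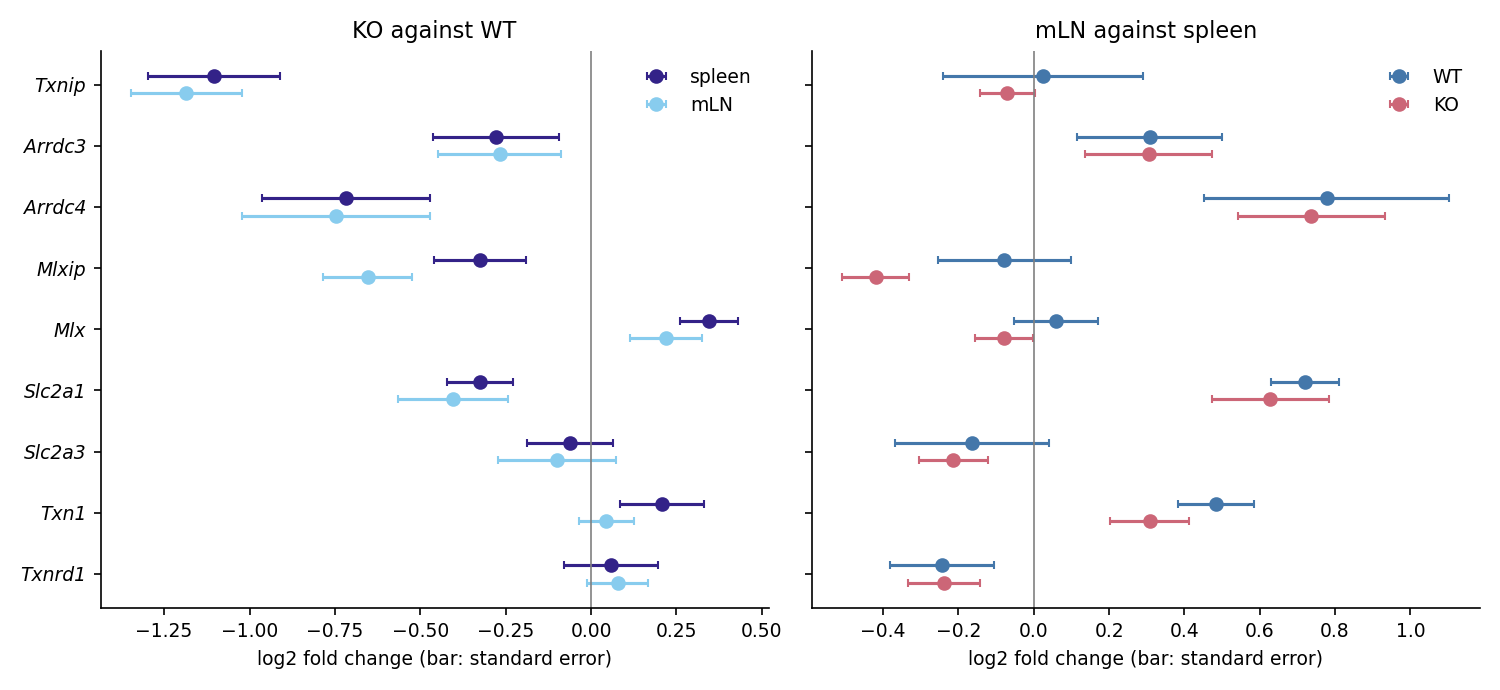
Log2 fold changes of the 9 genes from edgeR (x), with bars of 1 standard error, for KO against WT in each organ (left) and for mLN against spleen in each genotype (right). Txnip is lowest on the left at −1.10 and −1.18 and lies near 0 on the right.

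Between the organs, Txnip itself did not pass the test. Its log2 difference of mLN from spleen was 0.02 (SE 0.27, edgeR adjusted p = 0.962) in WT and −0.07 (SE 0.07, adjusted p = 0.517) in KO T cells. Of the 9 genes, 2 were called in WT (Slc2a1 and Txn1, both higher in mLN), where 20.5% of all genes tested were called, and 3 in KO (Arrdc4 and Slc2a1 higher, Mlxip lower), where 25.3% were called. Read against these backgrounds, the counts are not a result about the 9 genes. Whether the difference between KO and WT differed between the organs was tested over all 15 samples, and 0 of the 9 genes and 0 of 15438 genes (0%) were called by edgeR, with 652 genes at an unadjusted p under 0.05 and 4 genes called by DESeq2. The interaction of Txnip was −0.08 (SE 0.28, adjusted p = 0.9998). The comparisons share samples, so their values are not independent of each other.

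Levels of different genes were compared roughly per kilobase of exon, with the exons of all annotated transcripts of a gene merged. The transcripts expressed in these cells were not determined, so genes with several transcripts may be understated. On this scale Txn1 and Txnip led in WT spleen. There Txn1 had 158 ± 16.6 and Txnip 147 ± 51.8 CPM per kb (SD, n = 4), a difference within the spread. Mlx followed with 43.2 ± 3.56, Slc2a3 with 21.4 ± 3.80, Txnrd1 with 17.7 ± 3.08, Slc2a1 with 17.2 ± 1.34 and Mlxip with 11.5 ± 2.83 CPM per kb. Slc2a3, Txnrd1 and Slc2a1 overlapped with each other, while Slc2a3 did not overlap with Mlx, its neighbour above, nor Slc2a1 with Mlxip, its neighbour below. Arrdc4 with 4.43 ± 1.45 and Arrdc3 with 3.75 ± 0.83 CPM per kb were lowest and overlapped too. In KO spleen Txn1 was at 181 ± 27.0 and Txnip at 67.3 ± 4.21 CPM per kb, closer to Mlx at 54.5 ± 3.81 CPM per kb.

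Genes with a pattern most like that of Txnip were sought among 15437 genes by Pearson's r of the log2 CPM over the 15 samples. After Gm15441 (r = 0.99), they were Tsc22d3 (0.95), which encodes a leucine zipper protein known to be induced by glucocorticoids, Ndor1 (0.94), a diflavin oxidoreductase gene, A430072P03Rik (0.93) and Spon1 (0.92). Tsc22d3 averaged 372 ± 212 CPM in WT spleen, 132 ± 28.3 CPM in KO spleen, 501 ± 250.3 CPM in WT mLN and 145 ± 20.4 CPM in KO mLN, so its WT samples were widely spread as well. After the group means were subtracted, the highest values were those of Gm15441 (0.98), Iltifb (0.94, at 1.01 to 2.89 CPM on average), Tsc22d3 (0.93), 6530413G14Rik (0.92) and Acp5 (0.92), an acid phosphatase gene. Of the 9 genes, Mlxip had r = 0.82 to Txnip over the 15 samples and 0.69 after the subtraction, and Mlx had −0.87 and −0.68. Arrdc4, with 0.37 and −0.30, and Arrdc3, with 0.26 and −0.25, did not keep 1 sign. The points share libraries and, between organs, perhaps mice, and Gm15441 shares reads with Txnip as described. The r without the subtraction also holds the difference of KO from WT on which Txnip was chosen. Within groups, Txnip varied more in WT (coefficient of variation 28.8% in mLN and 35.3% in spleen) than in KO (6.3% and 6.25%). The r after the subtraction therefore rests mainly on the WT samples.

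Of 10 genes of the Max network, the partners and relatives of Mlx and Mlxip, 8 were tested. This list and the lists below were chosen with earlier results of these data known, so their counts of called genes are a description. In spleen, where 1.3% of all genes tested were called, 2 rose and 1 fell in KO T cells: Mxd4, a repressor that pairs with Max and Mlx, rose by 0.84 on the log2 scale (SE 0.11, edgeR adjusted p = 0.0123), Max rose by 0.31 (SE 0.063, adjusted p = 0.0453), and Myc, the growth factor-responsive activator of glycolytic genes, fell by 0.98 (SE 0.20, adjusted p = 0.0453). Mxd4 averaged 91.5 ± 13.3 CPM in WT and 162 ± 14.7 CPM in KO spleen, and Myc ranged from 72.1 to 127 CPM in WT and 38.4 to 61.8 CPM in KO, without overlap. In mLN, where 0.641% of all genes tested were called, 1 of the 8 was called, Mxd4, which rose by 0.95 (SE 0.15, adjusted p = 0.0326) from 90.2 ± 16.7 to 175 ± 28.7 CPM. There the log2 difference of Myc was −0.91 (adjusted p = 0.077) and that of Max 0.54 (adjusted p = 0.0957). The call of Mxd4 in spleen was lost without KO spleen 2 (adjusted p = 0.0554), and in mLN it was kept only without KO mLN 1, while in spleen the call of Max was kept in 1 and that of Myc in 2 of 8 fits that left out a sample. Without WT spleen 3 and 4, the samples high in erythroid markers, Mxd4 was still called in spleen, and Max, Myc and Gpx4 were not.

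In the other lists 1 gene was called by edgeR between the genotypes, Gpx4 in spleen. Of 8 tested alpha-arrestins and proteins that handle Txnip, 0 were called by edgeR in either organ. The smallest p was that of Wwp1, a ubiquitin ligase, in spleen (−0.30, adjusted p = 0.164) and of Arrdc2 in mLN (−0.67, adjusted p = 0.131). Of 10 tested glucose carriers, hexokinases and carrier traffic genes, 0 were called by edgeR, with the smallest p for Slc2a8 in spleen (−0.44, adjusted p = 0.0974) and Slc2a6 in mLN (0.79, adjusted p = 0.162). Of 19 tested thioredoxin, peroxiredoxin and glutaredoxin genes, Gpx4, a peroxidase of lipid hydroperoxides, fell in spleen by 0.38 (SE 0.074, adjusted p = 0.0444), a call kept in 1 of 8 fits that left out a sample, and 0 were called in mLN, where the smallest p was that of Prdx6 (−0.43, adjusted p = 0.137). Of 11 tested genes of NRF2 and its targets, 0 were called by edgeR, with the smallest p for Hmox1 in spleen (1.01, adjusted p = 0.0812) and Gclc in mLN (−0.35, adjusted p = 0.362).

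Between the organs, 15 genes of the 5 lists were called in WT, where 20.5% of all genes tested were called, and 24 in KO, where 25.3% were called. More genes overall were thus called than between the genotypes, and nothing particular to the lists is read from the counts. In the Max network Myc rose in mLN by 0.92 in WT (edgeR adjusted p = 0.0198) and 0.98 in KO (adjusted p = 0.00237), and 3 genes fell in both genotypes: Max by 1.28 and 1.06, Mnt by 1.26 and 1.91, and Mga by 0.50 and 0.75 on the log2 scale. Of the thioredoxin and related genes, 6 of 19 rose in each genotype and 0 fell, beside the 20.5% and 25.3% of all genes that were called in either direction. Those with the smallest p were Prdx6, Glrx5, Glrx3 and Prdx3 in WT (0.45, 0.46, 0.40 and 0.46 on the log2 scale) and Glrx5, Prdx3, Gpx4 and Gpx1 in KO (0.32, 0.34, 0.39 and 0.34), genes of peroxide removal and of iron-sulfur assembly. Of the carrier list, Tbc1d4, a regulator of transporter traffic, rose by 0.80 in WT and 0.89 in KO, while Hk1 and Tbc1d1 fell in both, and Hk3 and Slc2a6 were also called in KO. Of NRF2 and its targets, Nfe2l2, the gene of NRF2, rose by 0.59 and 0.52 and its antagonist Bach1 fell by 1.03 and 1.15, and in KO Keap1 (−0.41) and Hmox1 (−1.87) fell and Taldo1 rose (0.24). Of the arrestin list, 0 of 8 were called by edgeR in WT, with the smallest p for Arrdc1 (0.31, adjusted p = 0.0531), and in KO Nedd4, Arrdc2 and Ddit4 fell and Arrdc1 rose.

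In WT, 27 genes of the 5 lists were called between the organs with the replicate block. Without the 3 WT samples high in erythroid markers, the WT calls of Prdx6, Glrx5, Glrx3, Gpx4 and Txn2 were lost. So were those of Nfe2l2, Myc, Hk1 and Tbc1d1 (edgeR adjusted p from 0.0524 for Hk1 to 0.0981 for Myc). That fit kept only WT spleen 1 and 2 and WT mLN 1 and 2. Whether the calls were lost through the smaller number of samples or through the erythroid content was not tested. Without a given sample, the WT calls of Myc (WT spleen 1, WT mLN 2 or WT mLN 4), Hk1, Tbc1d1 and Gpx4 and the KO calls of Arrdc1, Arrdc2, Nedd4, Ddit4, Gpx1, Glrx3, Txn2, Hk3, Slc2a6 and Taldo1 were lost in at least 1 fit. The summed level of 4 macrophage and monocyte markers, all with reads, was 107 to 198 CPM in WT spleen, 101 to 300.4 CPM in KO spleen, 36.4 to 186 CPM in WT mLN and 60.7 to 71.5 CPM in KO mLN, and that of 4 dendritic cell markers was 39.0 to 55.6, 55.9 to 122, 51.0 to 108 and 64.0 to 174 CPM. Their part in the organ differences, Hmox1 among them, was not tested. In the interaction 0 genes of these lists were called by edgeR.

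**Figure D5:**
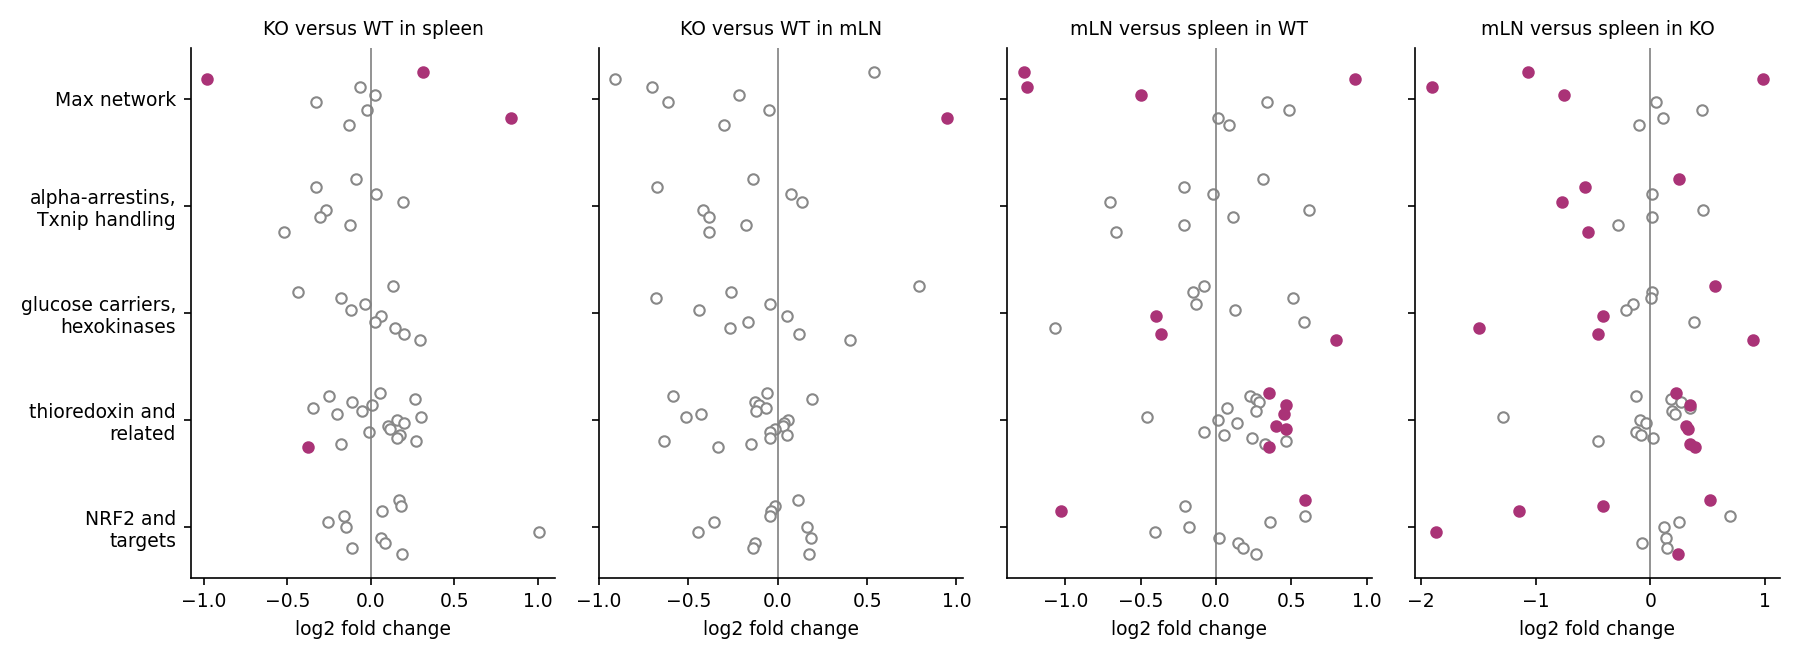
Log2 fold change (x, with its own range in each panel) of each tested gene of the 5 lists around the 9 genes, in 4 comparisons, with genes called at an adjusted p under 0.05 as filled purple points and the others as open grey points. Between genotypes 4 genes are filled in spleen and 1 in mLN, and between organs 15 in WT and 24 in KO.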

How the data were processed

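Raw counts per gene were deposited for 15 samples. Per the study's methods, libraries were made with the NEBNext Single Cell/Low Input kit and sequenced as single-end reads, and the authors aligned them to GRCm38 with GENCODE annotation; the submitters' processing notes list STAR 2.6.1a and DESeq2 1.22.2. The deposited whole-number counts are not normalized. Reads on no feature were 58.4% to 63.4% of the uniquely aligned reads, and ambiguous reads 0.752% to 0.987%; both were left out of library sizes.

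Symbols and coordinates came from a GENCODE annotation of GRCm38 close to that of the authors. Each comparison was tested with edgeR 4.0.16 in R 4.3.3 (edgeR's filter on low counts, TMM, quasi-likelihood test, Benjamini-Hochberg adjustment over all genes tested, limit 0.05), and DESeq2 1.42.0 was an alternative. SE is the log2 fold change divided by the root of the F statistic. The 9 genes, the gene lists and the tests were chosen with earlier results of these data known. Lists were described by counts and medians. The genes named are the 9 genes, Prkaa1, genes that overlap them, up to 4 called genes per list and comparison with the smallest p (the gene with the smallest p where none was called), and the 5 genes most like Txnip by each measure; Slc2a6, Taldo1, Txn2 and others beyond 4 per list were named after their values were seen. Deviations from group means correlated between spleen and mLN of the same number in WT (r = 0.258, 0.243 and 0.291). The labels do not tie numbers to mice, so the main tests did not pair samples, and pairing entered only as the replicate block. Alternatives were DESeq2, RLE normalization, no filter, at least 10 counts in every sample, 1 fit of all 15 samples, the replicate block, a log2 fold limit of 1, Txnip and Gm15441 summed, TMM-scaled CPM and each sample left out in turn; leaving out the 3 WT samples high in erythroid markers was added after seeing the data. The steps were tested on simulated data with planted changes larger than those of the 9 genes, so the recovery of smaller changes was not checked. Intervals for counting error are not given, since the samples were compared as replicates; reads carry no molecular identifiers.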

Additional observations from a re-analysis of the deposited data

How the results depend on the processing

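Txnip stayed lower in KO in every alternative: the log2 fold change lay between −1.11 and −0.91 in spleen and −1.19 and −1.13 in mLN, and between −1.24 and −0.86 and between −1.39 and −1.005 when a sample was left out. Its call was kept in 3 of 8 such fits in spleen (without WT spleen 1, 3 or 4) and in 2 of 7 in mLN (without WT mLN 1 or KO mLN 1). Txnip was chosen on this comparison in the same counts. Its direction, its call and the fits that kept the call are therefore a description and not a test.

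Of the 9 genes, 1 was called between genotypes in spleen and 1 in mLN. These numbers were 2 and 2 by DESeq2, 4 and 4 without the filter, and 0 and 0 with the replicate block. In mLN 2 were called with at least 10 counts in every sample and 2 with all 15 samples in 1 fit. With a sample left out, 0 to 2 were called in spleen and 0 to 2 in mLN. Since the comparison was used for the choice of Txnip, nothing is read from these numbers either. The list genes called (4 and 1) were 7 and 5 by DESeq2, 9 and 7 without the filter, 1 and 7 with all 15 samples, 1 and 0 with the block, 0 and 0 with a log2 fold limit of 1, 1 in spleen without the 3 WT samples high in erythroid markers (chosen after seeing the data), and 0 to 3 and 0 to 1 with a sample left out. All genes called (185 and 92) were 840 and 588 by DESeq2, 1422 and 913 without the filter, 85 and 500 with all samples, 17 and 1 with the block and 64 and 47 with the fold limit, 119 in spleen without the erythroid-high samples, and 12 to 324 and 4 to 117 with a sample left out. The correlation of same-numbered WT and KO samples was −0.21 to 0.146, so these share only a number.

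Between organs, the fold limit left 0 of the 9 genes in WT and 0 in KO, 3 and 5 list genes (of 15 and 24), and 723 and 763 genes (of 2980 and 3602). The WT list count was 23 without the filter, 27 with the block and 8 without the erythroid-high samples, where 1472 genes were called. Leaving out a sample gave 2 to 3 and 3 to 4 of the 9 genes and 11 to 16 and 16 to 24 list genes. In KO the block called 5 of the 9 genes; there same-numbered samples correlated at 0.026 to 0.259 and 2 of 4 matched best, a hint from the data only. In the interaction, the filter left off gave 1 list gene and 112 genes, and the block 3 genes.

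Values near 0 changed sign. With the block, Txnip between organs in WT was −0.054, and the interactions of Arrdc3 and Txnrd1 were −0.055 and −0.10; Arrdc3 was −0.0075 without the filter and −0.13 without the erythroid-high samples. Between genotypes, leaving out a sample gave −0.15 to 0.060 for Slc2a3 and −0.049 to 0.17 for Txnrd1 in spleen and −0.30 to 0.13 for Slc2a3 in mLN (0.0054 with the block). With a sample left out, the WT organ difference ranged from −0.16 to 0.26 for Txnip, −0.39 to 0.034 for Slc2a3, −0.18 to 0.062 for Mlxip and −0.049 to 0.13 for Mlx, and the interaction from −0.32 to 0.10 for Txnip, −0.10 to 0.15 for Arrdc3, −0.30 to 0.43 for Arrdc4, −0.27 to 0.0092 for Slc2a1, −0.24 to 0.18 for Slc2a3 and −0.095 to 0.13 for Txnrd1. The causes were not tested. Of 698 values of the 9 genes under alternatives, 650 kept their direction and 612 kept both their direction and their side of the limit. Levels of Arrdc3 and Arrdc4 rest on the fewest reads, 87 to 479 per sample.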
